A study of Arabidopsis thaliana with 4 samples.

Results

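The 10 genes described here form the core of the circadian clock of Arabidopsis thaliana, and they were chosen by locus from 33316 loci measured by RNA sequencing. They are LHY (AT1G01060), CCA1 (AT2G46830), PRR9 (AT2G46790), PRR7 (AT5G02810), PRR5 (AT5G24470), TOC1 (AT5G61380), GI (AT1G22770), ELF3 (AT2G25930), ELF4 (AT2G40080) and LUX (AT3G46640). RNA came from the stem base of mol1-1 mutants (2 libraries) and of wild-type plants (WT, 2 libraries), both in the Col-0 background. MOL1, a receptor-like kinase with leucine-rich repeats, is known as a brake on secondary growth of the stem, and the study compared stem transcripts of the mutant with those of WT. Plants spent 3 weeks in short days with 8 h of light and then moved to long days with 16 h of light. Each sample was 1 cm of inflorescence stem just above the rosette, from plants 15 to 20 cm tall. Whether the replicates are separate harvests is not stated, so the p-values below measure the spread between these libraries, which may be technical. The hour of harvest is not given in the sources used here. A change of phase and a change of level therefore cannot be told apart for any clock gene.

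The plant clock is a loop of transcriptional repressors that peak one after another through the day. LHY and CCA1 are Myb-related factors that peak at dawn and repress evening genes, and the PRR proteins then repress LHY and CCA1 in a wave from morning to evening that ends with TOC1. ELF3, ELF4 and LUX form the evening complex, a night-time repressor of PRR9, PRR7 and other targets, while GI, an evening protein, links the clock to flowering and to the turnover of TOC1. LHY and CCA1 bind the evening element, written AAAATATCT, in promoters of evening genes.

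The evening element was searched on both strands in the 250 bases before each gene start in the RefSeq annotation of TAIR10.1. It was found in 3 of the 10 promoters, those of LUX, TOC1 and PRR5, against 2.36% of 27443 protein-coding promoters. The deposited exon length of PRR5 is 2257 bases, against 1677 in TAIR10.1, so its start in that annotation is uncertain. Its window may therefore lie partly within the transcript. For LUX the deposited length is 1725 bases, against 3916 in TAIR10.1, so its start is uncertain as well. The windows of the 3 genes are shown because they hold the letters that the dawn factors are known to bind. They are read 5′ to 3′ on the strand of the gene, with the evening element in capitals. AGATATTTT is the same element on the opposite strand. The windows lie at chr3:17182964-17183023 (plus strand) for LUX, chr5:24674787-24674846 (plus strand) for TOC1 and chr5:8358699-8358758 (minus strand) for PRR5.
LUX: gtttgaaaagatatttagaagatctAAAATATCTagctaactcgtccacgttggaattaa
TOC1: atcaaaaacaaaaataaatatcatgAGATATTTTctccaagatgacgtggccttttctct
PRR5: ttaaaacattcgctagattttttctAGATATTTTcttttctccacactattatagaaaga

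The G-box, written CACGTG, is bound by light-signalling factors of the bHLH and bZIP families and reads the same on both strands. It was found in 5 of the 10 promoters (LHY, CCA1, PRR9, PRR7 and LUX), against 6.49% of promoters of the same length. The CCA1-binding site (AAAAATCT or AACAATCT) was found in 2 of the 10 (PRR5 and ELF3), against 8.38%. In PRR5 it lies, in small letters and on the opposite strand, within the window shown above. The LUX-binding site (GATTCG or GATACG) was found in 3 of the 10 (PRR9, ELF3 and ELF4), against 12.1%. The windows of the dawn genes, with the G-box in capitals, lie at chr1:37921-37976 (minus strand) for LHY and chr2:19245373-19245428 (plus strand) for CCA1.
LHY: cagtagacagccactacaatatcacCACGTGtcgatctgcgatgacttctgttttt
CCA1: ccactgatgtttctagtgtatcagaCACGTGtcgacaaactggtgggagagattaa
A match describes the letters in the window and no more, and the absence of a match says only that they are not in these 250 bases.

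The labels were checked first. MOL1 (AT5G51350) had 342 and 264 exon reads in mol1-1 and 938 and 825 in WT, and was lower in the mutant, with a log2 value of -1.66 (SE 0.12) that edgeR's quasi-likelihood test called at an adjusted p of 0.0217. Exon reads in named loci ran from 28017346 to 37059413 per library. Defining markers of xylem, phloem, cambium, epidermis and green tissue were all present, and both root hair markers were at 0 reads in all 4 libraries. The summed level of the 3 flower markers found in the files was at most 0.978 CPM (reads per 1000000, scaled by TMM). Replicates differed beyond counting noise in both genotypes (chi-square divided by its degrees of freedom, 62.3 for mol1-1 and 28.9 for WT). Epidermis markers summed to 121 and 97.1 CPM in mol1-1 and 147 and 153 CPM in WT. The green tissue marker, 1 gene, had 1776 and 2275 CPM in mol1-1 and 1757 and 1689 CPM in WT. Neither overlapped between genotypes, though the gap of the green tissue marker was small. LHCB1.1, another gene of green tissue, did overlap, with 381 and 580 CPM in mol1-1 and 461 and 365 CPM in WT. Over all tested loci, 16.9% were higher in both mutant libraries than in both WT libraries, and 16.8% were lower. The part of these markers in the clock values was not tested. The summed level of 3 xylem cellulose synthase genes was 8750 and 4980 CPM in mol1-1 replicates 1 and 2, and 6142 and 8404 CPM in WT replicates 1 and 2.

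All 10 clock genes had enough reads to be tested, and none passed. The adjusted p-values of edgeR's quasi-likelihood test ran from 0.679 to 0.997, against a threshold of 0.05 that 0.2% of all 19024 tested loci passed, 0.189% as higher and 0.0105% as lower in mol1-1. At an unadjusted p under 0.05 there was 1 member, LUX, a share set beside 5.94% of all tested loci. DESeq2, limma-voom and limma on the deposited RPKM also called 0 of the 10. The log2 fold changes (mol1-1 over WT) lay between -0.45 and 0.41, with 4 above and 6 below 0 and a median of -0.05, against -0.01 over all tested loci. For 9 of the 10 genes the 95% interval of the fold change lay within a 2-fold change in either direction. ELF4, which has few reads, was the exception. In bulk tissue, fewer cells of a type and less RNA per cell cannot be told apart.

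**Figure D1:**
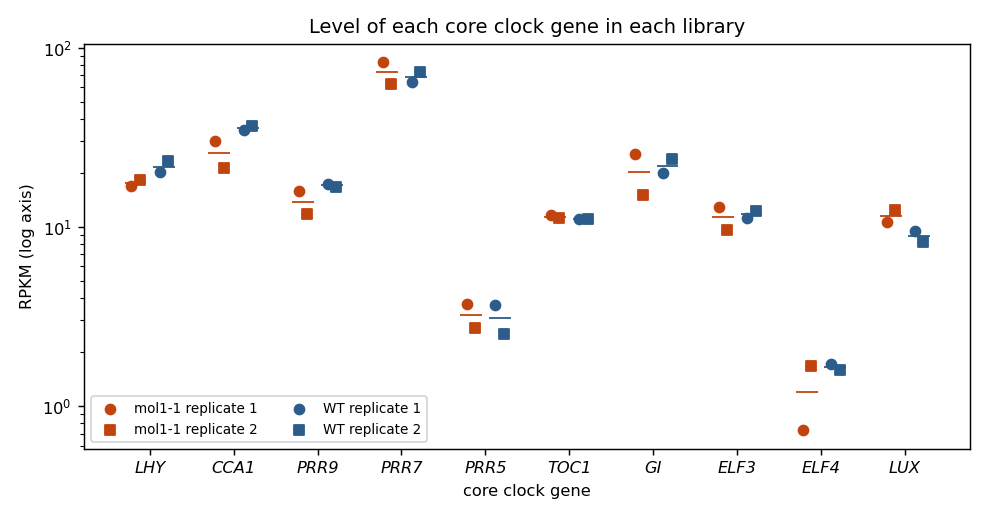
RPKM of each core clock gene on a log axis in the 2 mol1-1 libraries (orange) and the 2 WT libraries (blue), with circles for replicate 1, squares for replicate 2 and lines for group means. PRR7 stands at the top and ELF4 at the bottom in both genotypes.

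LHY and CCA1, the dawn repressors, were lower in both mutant libraries than in both WT libraries. LHY had 2067 and 1705 exon reads in mol1-1, against 2034 and 2144 in WT. Scaled for length and depth these were 16.97 and 18.2 RPKM (reads per kilobase of exon per 1000000 reads) in mol1-1 and 20.1 and 23.3 RPKM in WT. The mutant libraries lay close together and the gap to WT replicate 1 was small. The log2 fold change of LHY was -0.27 (SE 0.14, 95% interval -0.63 to 0.08, adjusted p 0.944 in edgeR). Leaving out WT replicate 2 brought it to -0.12, and leaving out WT replicate 1 to -0.41.

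CCA1 had 2658 and 1442 exon reads in mol1-1, against 2547 and 2447 in WT. Its levels were 30.1 and 21.2 RPKM in mol1-1 replicates 1 and 2, and 34.7 and 36.6 RPKM in WT. The WT libraries were alike, and mol1-1 replicate 2 stood well below the other 3. The log2 fold change was -0.44 (SE 0.21, 95% interval -0.95 to 0.07, adjusted p 0.917 in edgeR). It was -0.19 without mol1-1 replicate 2 and -0.76 without mol1-1 replicate 1, where the adjusted p was 0.0531.

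The pseudo-response regulators did not move as a block. PRR9, the morning member, had 15.7 and 11.8 RPKM in mol1-1, against 17.4 and 16.8 RPKM in WT. Both mutant libraries were below both WT libraries, mostly through replicate 2. PRR9 differed by -0.27 in log2 (SE 0.18; edgeR adjusted p 0.997), by -0.06 without mol1-1 replicate 2, and by -0.54 without mol1-1 replicate 1 (adjusted p 0.0968). PRR7 was the most abundant of the 10, with 82.7 and 62.7 RPKM in mol1-1 and 64.1 and 73.1 RPKM in WT. The genotypes overlapped, as they did for PRR5, which had 3.68 and 2.73 RPKM in mol1-1 and 3.65 and 2.53 RPKM in WT. TOC1, which closes the PRR wave, was the steadiest gene of the 10.

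TOC1 had 11.6 and 11.2 RPKM in mol1-1, and 11.1 in each of the WT libraries. Its highest library exceeded its lowest by 1.105-fold in CPM, and the 95% interval of its fold change, 0.862 to 1.28, was the narrowest of the 10. The log2 fold changes of PRR7 (0.12, SE 0.20), PRR5 (0.09, SE 0.25) and TOC1 (0.07, SE 0.12) were each smaller than their standard error. The signs of PRR7 and PRR5 turned when single libraries were left out, to -0.14 and -0.18 without mol1-1 replicate 1, to -0.0032 for PRR7 without WT replicate 1 and to -0.10 for PRR5 without WT replicate 2.

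PRR9 is the only member whose reads are shared with another place in the genome. Unique reads made up 66.8% and 54.2% of its exon reads in mol1-1, and 63.9% and 68.9% in WT, against 100%, after rounding, for each of the other 9 genes. Of the 50-base words in its TAIR10.1 exons, 41.1% occur elsewhere in the genome, in and beside AT2G46670 on the same chromosome. The longest shared stretch covers 781 bases at chr2:19234399-19235179, at the 3′ end of the gene. AT2G46670 itself was assigned 3 and 5 exon reads in mol1-1 and 11 and 8 in WT. How the authors divided shared reads is not given in the sources used here. On unique reads alone PRR9 had 723 and 339 reads in mol1-1 and 636 and 601 in WT, which gave -0.39 in log2 (SE 0.26) and an adjusted p of 0.995 in edgeR.

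On a log scale, GI showed the widest spread within the mutant among the well-expressed genes. It had 25.5 and 15.0 RPKM in mol1-1, and 20.1 and 23.8 RPKM in WT. The 2 mutant libraries lay on either side of both WT libraries. The log2 fold change was -0.08 (SE 0.28, adjusted p 0.997 in edgeR). Its sign turned to 0.27 when mol1-1 replicate 2 was left out and to 0.10 when WT replicate 2 was, and it was -0.56 with mol1-1 replicate 1 left out.

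Within the evening complex, LUX, the DNA-binding Myb-type subunit, was higher in both mutant libraries than in both WT libraries. It had 690 and 623 exon reads in mol1-1, against 512 and 404 in WT. Its levels were 10.6 and 12.4 RPKM in mol1-1 and 9.48 and 8.22 RPKM in WT, so that the groups did not overlap. The log2 fold change was 0.41 (SE 0.14, 95% interval 0.07 to 0.76), with an unadjusted p of 0.0272 and an adjusted p of 0.679 in edgeR. The unadjusted p was 0.0272 in limma-voom, 0.0546 in DESeq2, and 0.0591 and 0.0617 in limma on RPKM. In edgeR it ran from 0.0261 to 0.0520 under other scalings and was 0.0652 with a replicate block. The log2 fold change stayed between 0.32 and 0.49 when each library was left out in turn. In TAIR10.1 the span of AT3G46650, a gene on the opposite strand, covers 1507 bases of LUX exons. The deposited exon length of LUX is 1725 bases, against 3916 in TAIR10.1, so whether the overlap lies in what was counted is not known. AT3G46650 had 31 and 59 exon reads in mol1-1 and 63 and 17 in WT, and where the genes overlap, reads cannot be told apart without stated use of strand.

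ELF3, the scaffold of the complex, had 12.9 and 9.60 RPKM in mol1-1 and 11.2 and 12.3 RPKM in WT, with a log2 fold change of -0.02 (SE 0.19). The mutant libraries again lay on either side of the WT libraries, and the sign turned to 0.20 without mol1-1 replicate 2 and to 0.09 without WT replicate 2. ELF4, a small protein that acts through ELF3, was close to the limit of detection. It had 17 and 30 exon reads in mol1-1, against 33 and 28 in WT. The low value of mol1-1 replicate 1 set its log2 fold change of -0.45 (SE 0.48, 95% interval -1.65 to 0.74), which was 0.02 without that library and -1.11 without mol1-1 replicate 2. That interval does not exclude a 2-fold decrease.

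Both mutant libraries were higher than both WT libraries for 1 gene (LUX) and lower for 3 (LHY, CCA1 and PRR9), and the genotypes overlapped for the other 6. Over all tested loci 16.9% were higher in this sense and 16.8% lower. The lowest level fell in mol1-1 replicate 2 for 5 genes (CCA1, PRR9, PRR7, GI and ELF3), and the highest in mol1-1 replicate 1 for 5 (PRR7, PRR5, TOC1, GI and ELF3). The same counts were not made over all tested loci, so they are not read as a trait of the clock genes. The lowest xylem level given above was also in mol1-1 replicate 2, and the part of this in the clock values was not tested.

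**Figure D2:**
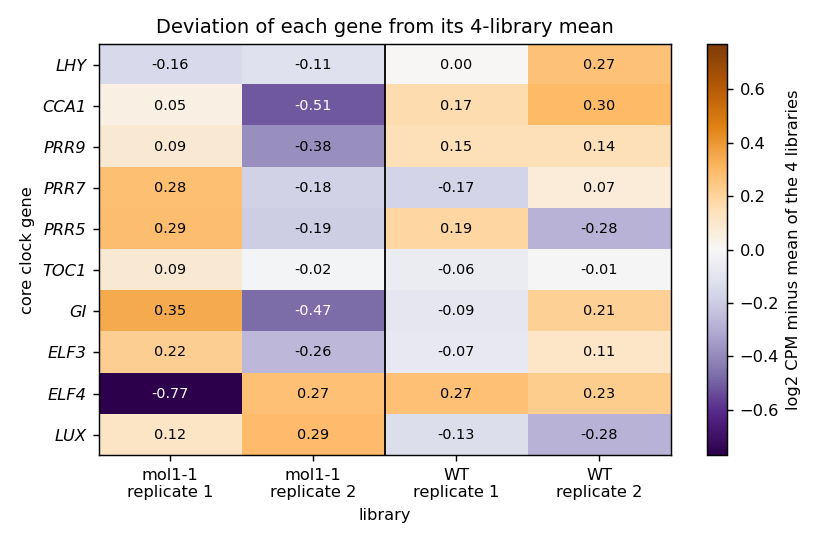
Log2 CPM of each core clock gene minus its mean over the 4 libraries, mol1-1 libraries on the left of the black line and WT on the right. In mol1-1 replicate 2, CCA1 (-0.51), GI (-0.47) and PRR9 (-0.38) lie below their means, and ELF4 (-0.77) does so in mol1-1 replicate 1.

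**Figure D3:**
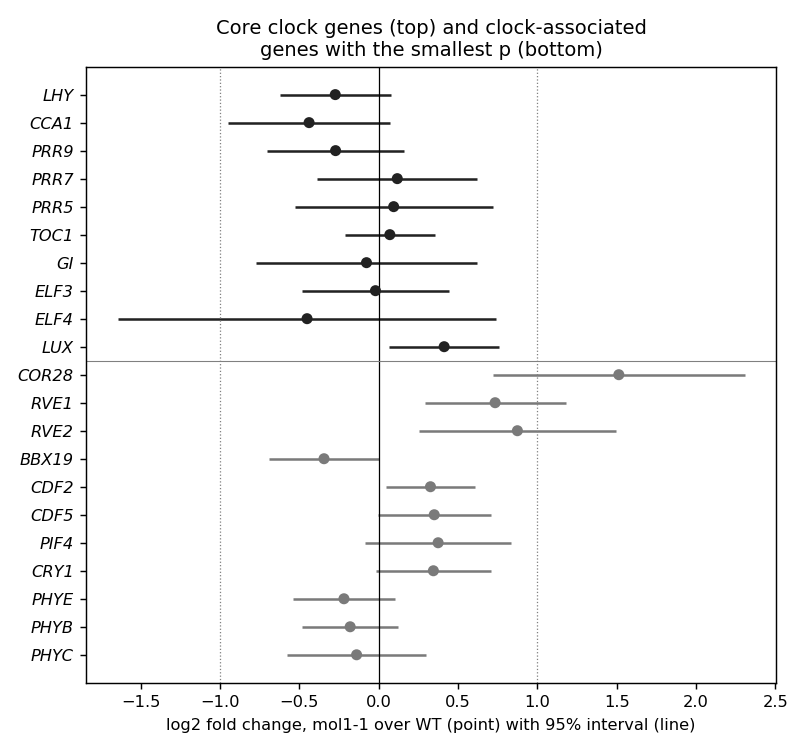
Log2 fold change (mol1-1 over WT) with its 95% interval for the 10 core clock genes in black and for clock-associated genes with the smallest p in grey, with dotted lines at a 2-fold change. Intervals of the core genes include 0 except that of LUX.

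The order of the levels was nearly the same in both genotypes. In RPKM, PRR7 led with 72.7 ± 14.2 in mol1-1 and 68.6 ± 6.32 in WT (SD, n = 2 each), followed by CCA1, GI, LHY and PRR9 in both. PRR5 at 3.21 ± 0.67 in mol1-1 and 3.09 ± 0.79 in WT, and ELF4 at 1.20 ± 0.66 and 1.64 ± 0.08, closed the order in both genotypes (SD, n = 2 each). Between them stood LUX, TOC1 and ELF3 in mol1-1, in that order, with overlapping values, and ELF3, TOC1 and LUX in WT, where they did not overlap. GI and LHY overlapped in both genotypes, and CCA1 and GI, and PRR9 and LUX, overlapped in mol1-1.

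The balance of dawn to evening transcripts was read within each library as the mean log2 RPKM of LHY and CCA1 minus that of TOC1, LUX and ELF4. It was 2.34 and 1.67 in mol1-1 replicates 1 and 2, and 2.23 and 2.48 in WT replicates 1 and 2. The score was above 0 in all 4 libraries, and mol1-1 replicate 1 fell between the WT libraries. That place depends on ELF4, whose low value there, 0.73 RPKM from 17 exon reads, raises the score. ELF4 had 1.67 RPKM in mol1-1 replicate 2 and 1.70 and 1.59 RPKM in WT. A score without ELF4 was not computed. The difference of the means, -0.35, was about the size of the pooled SD within genotypes, 0.354. Both include the low ELF4 value of mol1-1 replicate 1, so their sizes without ELF4 are not known. The difference was -0.02 without mol1-1 replicate 2 and -0.68 without mol1-1 replicate 1. GI and ELF3 are not in the score, and GI exceeded LHY in mol1-1 replicate 1 and in WT replicate 2. No test was made, since the score rests on chosen members. The log2 ratio of CCA1 to LUX was 1.503 and 0.77 in mol1-1 and 1.87 and 2.16 in WT, and that of LHY to TOC1 was 0.55 and 0.70 in mol1-1 and 0.86 and 1.07 in WT. Neither ratio uses ELF4, and neither overlapped between the genotypes. Both pairs were chosen after their values were seen.

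The profiles of several members over the 4 libraries were alike. Likeness was measured as the root mean square difference of log2 CPM after centring each gene on its mean. The closest members were PRR7 and ELF3 (0.07), then CCA1 and PRR9 (0.10) and GI and ELF3 (0.13). ELF4 had the widest range (1.04 in log2 CPM), and its nearest loci with at least 10 CPM were ARR6 (0.09), ATH1 (0.13) and UMAMIT31 (0.14). ELF4 itself was far below that minimum, with means of 0.76 CPM in mol1-1 and 1.02 CPM in WT. Its 17 reads in mol1-1 replicate 1 set most of the range. The loci are the closest of many over only 4 values, so no link to ELF4 is read from them.

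Reads outside the annotated exons give a second view of some members. They made up 6.78% and 3.64% of the gene reads of ELF3 in mol1-1 replicates 1 and 2, and 9.81% and 7.29% in WT replicates 1 and 2. Both mutant libraries were below both WT libraries, as they were for CCA1 and for the same share over all annotated loci, given further on. How many loci separate in this way was not counted, so this is not read as a trait of ELF3. ELF3 also overlaps an antisense RNA (AT2G08135) and the end of ALPHA-VPE (AT2G25940) on the opposite strand, whose reads cannot be told apart from its own there. For CCA1 the shares were 2.85% and 1.503% in mol1-1 and 3.71% and 3.32% in WT, and for PRR7 they were 3.11% and 1.45% in mol1-1 and 2.18% and 3.20% in WT. TOC1 had 0 of 878 gene reads outside exons in mol1-1 replicate 2, which allows a share of up to 0.342% by the limit of 3 counts of the total, and 0.436% by the Wilson interval. Of the 9 genes with such reads, 6 had their single lowest share in mol1-1 replicate 2 (LHY, CCA1, PRR7, PRR5, TOC1 and ELF3), and GI and LUX were at 0 there and in at least 1 WT library as well. LHY and PRR5 say little here. LHY had 1 such read in that library, against 4 in mol1-1 replicate 1 and 2 and 5 in WT. PRR5 had 0, against 2 in mol1-1 replicate 1 and 3 and 2 in WT.

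**Figure D4:**
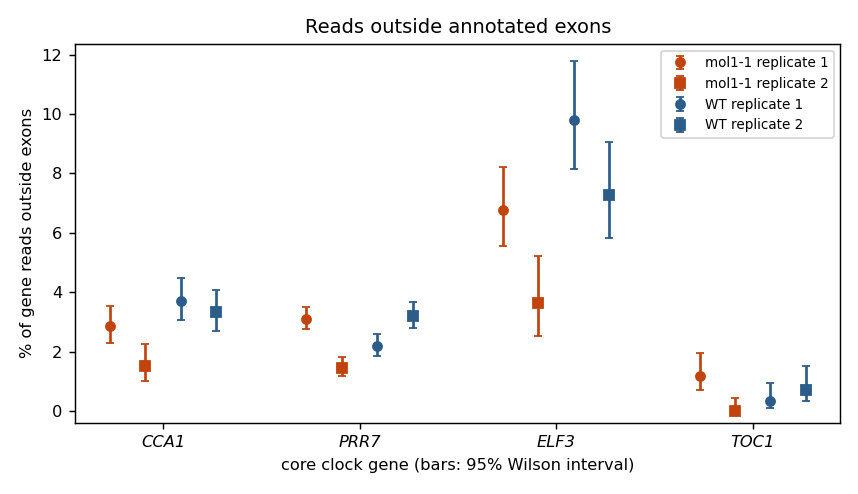
Share of gene reads outside annotated exons for CCA1, PRR7, ELF3 and TOC1 in each library, with 95% Wilson intervals that cover counting error only. In each gene the lowest point is mol1-1 replicate 2, from 0% in TOC1 to 3.64% in ELF3.

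That library differed in the same way over all loci. Its share of reads outside exons at loci with annotated transcripts was 0.572%, against 0.675% in mol1-1 replicate 1 and 0.702% and 0.698% in WT. In this share mol1-1 replicate 1 was also below both WT libraries. Its share of exon reads that span exon junctions was 15.2%, against 16.4% in mol1-1 replicate 1 and 16.5% and 16.7% in WT. Among the clock genes, 7 of the 9 with junction reads had their lowest junction share there. For LHY the junction share was 16.0% and 11.8% in mol1-1 and 15.2% and 15.1% in WT, and for CCA1 it was 15.8% and 12.6% in mol1-1 and 15.5% and 17.04% in WT. The part of this in the levels above was not tested.

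The deposited column headed total intron reads, which stands beside one for reads across intron-exon borders, had enough reads to be tested for 3 members. The column exceeded the gene reads outside exons at 16.97% to 17.97% of loci, PRR9 among them, so it is not a plain count of reads within introns, and what it counts is not given in the sources used here. Of 3139 loci tested on it with edgeR, 0.0956% passed, and 0 of the 3 did, none with an unadjusted p under 0.05 and none with DESeq2. CCA1 had 53 and 10 such reads in mol1-1 and 44 and 48 in WT (log2 fold change -0.71, SE 0.48, adjusted p 0.847). Without mol1-1 replicate 1 it passed, which left the 10 reads of replicate 2 as the only mutant value. PRR7 had 159 and 52 reads in mol1-1 and 95 and 79 in WT, and PRR9 had 16 and 8 in mol1-1 and 11 and 5 in WT.

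Beyond the core, 53 clock-associated genes were examined, of which 52 could be tested (EFL1 had too few reads). In edgeR 0 passed in either direction, 5 had an unadjusted p under 0.05 (5.94% of all tested loci did), and DESeq2, limma-voom and limma on RPKM called 0 as well. Their median log2 fold change was 0.02, with 28 above and 24 below 0. Both mutant libraries were higher than both WT libraries for 11 of the 52 and lower for 10, near the 16.9% and 16.8% of all tested loci.

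Among the 34 tested regulators the smallest p-values belonged to COR28, RVE1, RVE2 and BBX19. COR28, a cold-induced gene that represses evening clock genes, had 79 and 76 exon reads in mol1-1, against 24 and 26 in WT. That is 1.51 in log2 (SE 0.32, 95% interval 0.72 to 2.31; edgeR adjusted p 0.292). RVE1, a Myb-like factor that links the clock to auxin, had 13.2 and 13.5 RPKM in mol1-1 and 7.03 and 9.37 RPKM in WT (log2 fold change 0.73, SE 0.18, adjusted p 0.392). RVE2, of the same family, had 3.41 and 3.06 RPKM in mol1-1 and 1.82 and 1.79 RPKM in WT (0.87, SE 0.25, adjusted p 0.536). BBX19, a B-box protein, had 5.59 and 6.26 RPKM in mol1-1 and 7.77 and 7.59 RPKM in WT (-0.35, SE 0.14, adjusted p 0.843). The groups did not overlap for any of the 4, with BBX19 lower and the others higher in mol1-1. The 4 were picked by their p in these same libraries, so the lack of overlap adds no support.

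CDF2 and CDF5, DOF factors that delay flowering, had log2 fold changes of 0.33 (SE 0.11) and 0.35 (SE 0.14), and PIF4, a growth-promoting bHLH factor, had 0.37 (SE 0.19). The row for GRP7 (AT2G21660) had -0.47 (SE 0.19), but its deposited exon length of 2515 bases exceeds the 1474 bases that the whole gene spans in TAIR10.1, so it is not read as GRP7. Among the 7 photoreceptor genes, CRY1 had 85.9 and 82.4 RPKM in mol1-1 and 65.9 and 69.6 RPKM in WT (0.34, SE 0.15, adjusted p 0.880 in edgeR). PHYE, PHYB and PHYC had -0.22 (SE 0.13), -0.18 (SE 0.12) and -0.14 (SE 0.18). Leaving out 1 library gave 0.16 (without WT replicate 1) to 0.64 (without WT replicate 2) for PIF4 and 0.23 (without WT replicate 1) to 0.49 (without WT replicate 2) for CDF5. It gave -0.35 (without mol1-1 replicate 1) to -0.11 (without mol1-1 replicate 2) for PHYE and -0.24 (without WT replicate 1) to -0.10 (without WT replicate 2) for PHYB. PHYC turned sign, to 0.047 without mol1-1 replicate 2 and to 0.0074 without WT replicate 2. None of these genes passed.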

How the data were processed

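The authors deposited 1 table per library, and per the file headers it holds counts per locus of total and unique reads in genes and exons, junction and intron reads, and RPKM. Recomputed from the deposited counts, RPKM matched exon reads divided by exon length in kilobases and by gene reads in units of 1000000. The submitters' processing notes name TAIR10. For the aligner, counting program, strand and read filters, nothing is given in the sources used here. The 5 rows without a locus held at most 0.0864% of exon reads and were left out. Rows of 2 repeated loci were added together.

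Total exon reads went into edgeR 4.0.16 under R 4.3.3 (filterByExpr, TMM, quasi-likelihood, Benjamini-Hochberg over 19024 loci), and the script was tested on simulated data. A standard error is the log2 fold change divided by the square root of F. CPM use TMM sizes, and log2 CPM add a prior count of 2. Alternatives used DESeq2 1.42.0, limma 3.58.1, other scalings, filters, read columns, a block and left-out libraries. The members and lists were chosen with earlier results of these data known. All 10 members are named, with the clock-associated genes that passed or, with fewer than 4 passing, up to 4 per role with the smallest p.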

Additional observations from a re-analysis of the deposited data

How the results depend on the processing

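No core clock gene and no clock-associated gene passed in any of the 17 alternatives. Of 170 values of the 10 members under alternatives, 161 kept their sign, and the 9 that turned came from leaving out 1 library. Those 9 belonged to PRR7, PRR5, GI, ELF3 and ELF4. Most of the 170 refit the same full set of libraries, so the count of kept signs says little about how steady the directions are. Leaving out 1 library gave log2 fold changes from -0.14 to 0.33 for PRR7, -0.18 to 0.35 for PRR5, -0.56 to 0.27 for GI, -0.29 to 0.20 for ELF3, -1.11 to 0.015 for ELF4 and -0.37 to 0.047 for PHYC. The dawn to evening difference then ran from -0.68 to -0.02, and the members called on intron reads from 0 to 1 (CCA1). The number of loci called over all tested was 38 (36 higher, 2 lower), with 141 under no filter, 290 with DESeq2 and 37 to 409 with 1 library left out. With a replicate block it was 136, with 0 clock genes among them. Deviations of same-numbered libraries correlated at -0.238 over 19024 genes, so these libraries did not deviate in the same direction. Whether they were harvested or prepared together cannot be read from 1 correlation over genes that vary together. A crossed replicate block, chosen after seeing the data, called 248 loci, 0 of them clock genes. The cause of these shifts was not tested. ELF4 had the fewest reads of the members, 17 to 33 per library.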
